A study of Mus musculus with 115 samples.

Results

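Smooth muscle contractile genes encode the machinery with which smooth muscle shortens and the filaments and plaques that hold it. The 32 genes described here were chosen by name as autosomal genes of smooth muscle contraction and its cytoskeleton, and all 32 were found among the 45699 genes of the table. Prostate RNA was sequenced from (TRAMP x WSB) F2 males, in libraries that are each labelled with a different mouse and all belong to 1 group. Their expression separates them into 79 and 36, as described below, and values over all libraries are over both. TRAMP is a C57BL/6 line in which a minimal probasin promoter drives SV40 T antigen in prostate epithelium, and WSB/EiJ is an inbred strain of wild origin. Every F2 male was Transgene positive, so no library comes from a prostate without the oncogene, and the labels give no age. Small prostates were sampled from the ventral prostate only, and the libraries to which this applied are not named. The values are in TPM, transcripts of a gene relative to all transcripts, which accounts for gene length and is scaled to the same total in each library. TPM keeps no depth, so the counting error of each value is unknown.

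A mouse prostate gland is wrapped in a sleeve of smooth muscle that squeezes secretion into the ducts. Smooth muscle contracts when calcium entering through voltage-gated channels activates myosin light chain kinase, which phosphorylates the regulatory light chain of myosin and lets the myosin heavy chain pull on actin. Myosin phosphatase reverses this step. Many of these genes are known targets of serum response factor, which binds the CArG box, and of its cofactor myocardin. Some, such as Acta2 and Tagln, are also made by activated fibroblasts and by pericytes, whereas Myh11, Cnn1 and Lmod1 are regarded as marks of mature smooth muscle.

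The CArG box, 2 C, 6 letters that are A or T, and 2 G, was sought in the 250 bases upstream of RefSeq start sites on GRCm38.p6, because it is the sequence by which serum response factor recognises these genes. Promoters were found for 26 of the 32 members, in 34 windows. Tagln, Myh11, Actg2, Myocd, Nexn and Cacna1h had no promoter entry and were not searched. A CArG box lay in 4 windows of 3 members, Myl9, Cnn2 and Ldb3, whose 2 overlapping windows hold the same box, and in 1.47% of all 32851 promoters. A CArG-like sequence, in which 1 of the 6 inner letters is C or G, lay in 6 windows of 5 members, Acta2, Myl9, Hspb6, Synm and Cacna1c, and in 7.24% of all promoters. The letters TATAAA, on either strand, lay in 3 of the 34 windows and in 12.4% of all promoters, and GGAATG, the core of the TEAD site, in 8 of the 34 and in 12.6%. A match is a stretch of letters and was not shown to be a bound site. The stretches that hold a CArG box are printed below up to the first annotated exon base, with the boxes in capitals. The box started 161 bases before the start site in Myl9, which also holds a CArG-like sequence at 99 bases, 56 bases before it in Cnn2 and 35 bases before the more upstream of the 2 start sites of Ldb3. For Acta2, chosen after its level was seen, both CArG-like sequences lie in an exon of a longer GENCODE transcript and are shown with 10 bases on each side. They start 84 and 34 bases before the RefSeq start.
Myl9, chr2:156775214-156775419, plus strand: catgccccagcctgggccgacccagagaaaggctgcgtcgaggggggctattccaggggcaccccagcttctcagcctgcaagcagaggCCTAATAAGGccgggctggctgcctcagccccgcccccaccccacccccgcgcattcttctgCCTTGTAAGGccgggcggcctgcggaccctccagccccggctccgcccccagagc
Cnn2, chr10:79988350-79988583, plus strand: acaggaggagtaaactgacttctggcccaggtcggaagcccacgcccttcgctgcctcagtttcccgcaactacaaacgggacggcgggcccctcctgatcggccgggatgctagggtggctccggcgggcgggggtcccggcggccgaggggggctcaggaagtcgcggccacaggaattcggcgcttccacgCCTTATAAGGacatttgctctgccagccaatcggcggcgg
Ldb3, chr14:34588683-34588931, minus strand: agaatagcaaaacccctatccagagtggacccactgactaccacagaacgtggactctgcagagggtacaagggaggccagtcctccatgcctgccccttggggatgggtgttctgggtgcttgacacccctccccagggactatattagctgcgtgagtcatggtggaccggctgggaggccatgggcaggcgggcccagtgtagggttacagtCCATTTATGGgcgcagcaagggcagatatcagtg
Acta2, farther CArG-like sequence, chr19:34255438-34255467, minus strand: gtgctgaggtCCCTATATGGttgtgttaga
Acta2, nearer CArG-like sequence, chr19:34255388-34255417, minus strand: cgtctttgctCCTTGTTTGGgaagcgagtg

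Smooth muscle genes were among the better expressed genes of these prostates, and their levels varied widely between animals. Of the 32 members, 30 reached 1 TPM in 50% of libraries or more, as did 27.8% of all genes, and 8 members reached 1 TPM in every library. The summed TPM of the members ran from 108.8 in W4202 over a median of 2112 to 7209 in W4360. Over all libraries, 21 of the 32 members fell into separate low and high values. How many of all genes do so was not computed, so the count shows nothing particular to the members. In bulk tissue, fewer smooth muscle cells and less RNA of these genes per cell cannot be told apart, and a rise of any other abundant RNA lowers their TPM.

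**Figure D1:**
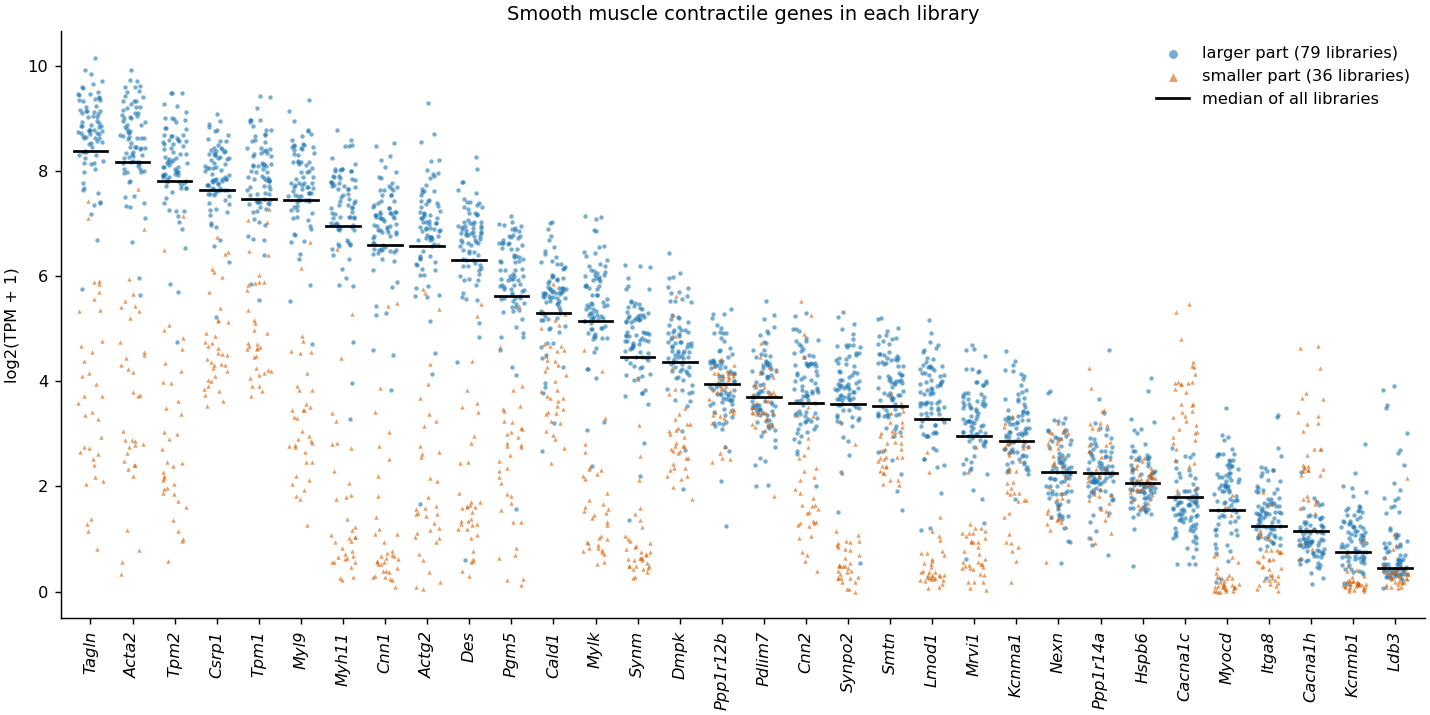
Level of each of the 32 members, as log2(TPM + 1), in each library. Circles are the 79 libraries of the larger part and triangles the 36 of the smaller part, and black lines are medians over all libraries, from 331 TPM for Tagln to 0.37 TPM for Ldb3.

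The thin-filament and calponin family genes included the 3 members with the highest medians, Tagln, Acta2 and Tpm2. Tagln, which encodes the actin-binding protein transgelin, ranged from 0.76 TPM over a median of 331 to 1134. Acta2, smooth muscle alpha-actin, ranged from 0.26 TPM over a median of 287 to 965, and Actg2, the enteric gamma-actin, from 0.03 over 94.2 to 627. Tagln was above Acta2 in 80 libraries and not in 35, so their order is not the same in every animal, whereas Acta2 was above Tpm2 in all but 7. Tpm2 and Tpm1, tropomyosins that lie along actin, had medians of 223 and 176 TPM. Tpm1 did not fall under 12.23 TPM in any library, while Tpm2 fell to 0.49. Cnn1, calponin 1, and Cnn2, its more widely expressed relative, had medians of 94.8 and 11 TPM. Cald1, caldesmon, another brake on the actin filament, had a median of 38.6 TPM, and Smtn, smoothelin, one of 10.6. Lmod1, leiomodin 1, which nucleates actin filaments, ranged from 0.05 TPM over a median of 8.71 to 35.

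The medians of the motor and its regulators ran from 172 TPM for Myl9 to 3.21 TPM for Hspb6. Myh11, the smooth muscle myosin heavy chain, ranged from 0.16 TPM over a median of 122 to 439, and its value at the 90th percentile of libraries was 378 times that at the 10th. Cnn1 alone varied more by this measure, 450 times. Myl9, the regulatory light chain, ranged from 1.41 over 172 to 651 TPM and was above Myh11 in all but 3 libraries. Mylk, the light chain kinase, had a median of 34.6 TPM. Ppp1r12b, a targeting subunit of myosin phosphatase, had a median of 14.5 TPM and differed only 3.11 times between the 10th and 90th percentile. Ppp1r14a, an inhibitor of the same phosphatase, had a median of 3.78 TPM, and Hspb6, a small heat shock protein linked to relaxation, one of 3.21 TPM with the narrowest spread, 2.48 times. Mrvi1, a target of cGMP kinase that restrains calcium release, had a median of 6.81 TPM.

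The medians of the filament, adhesion and Z-line genes ran from 198 TPM for Csrp1 to 0.37 TPM for Ldb3. Des, desmin, ranged from 0.23 TPM over a median of 78.3 to 306, and Synm, synemin, a partner of desmin, from 0.19 over 21 to 73.1. Csrp1, a LIM protein on actin bundles, had 10.61 TPM in its lowest library. Pgm5, a protein of dense plaques that resembles phosphoglucomutase, had a median of 48.3 TPM and Synpo2, synaptopodin 2, one of 10.9. Medians were 19.8 TPM for Dmpk, the myotonic dystrophy kinase, 12 for Pdlim7, a PDZ and LIM scaffold, 3.82 for Nexn, the actin-binding nexilin, and 1.37 for Itga8, an integrin subunit. Ldb3, a Z-disc protein better known from striated muscle, had the lowest median of all members and a highest value of 14.1 TPM, in W4078.

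The channels and the regulator were expressed at low levels. Kcnma1, the pore of the large-conductance calcium-activated potassium channel, had a median of 6.24 TPM, and its smooth muscle subunit Kcnmb1 one of 0.68. Kcnmb1 was the member whose mean stayed under 1 TPM and is not in the tests. Cacna1c, the L-type calcium channel, had a median of 2.5 and Cacna1h, a T-type channel, one of 1.23 TPM. Myocd, myocardin, had a median of 1.92 TPM and was listed at 0 in 2 libraries, and Synpo2 in 1. Of the 100-base stretches of the members' transcripts at most 4.94%, in Smtn, occurred in another gene. Only exact matches were counted, so reads shared between similar genes, such as Acta2 and Actg2, were not tested.

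Chga, Mki67 and Col1a1 mark neuroendocrine cells, proliferating cells and fibroblasts. TRAMP tumors can become neuroendocrine, and the comparison asks how the muscle genes stand where each of these marks is high. Chga, chromogranin A, was at 10 TPM or more in 32 libraries, and Myh11 was also at 10 TPM or more in 3 of them. Of the 83 libraries with less Chga, 78 held 10 TPM or more of Myh11. For Acta2 and for Tagln the counts were 15 of the 32 and 83 of the 83, and for Tpm1 and Csrp1 all libraries on both sides. Cacna1c ran the other way. It was at 10 TPM or more in 18 libraries and all 18 were among the 32 with Chga, as were all 6 libraries with that much Cacna1h. The highest value of Cacna1c, 43.1 TPM, was in W992, and that of Cacna1h, 24.4 TPM, in W1182. Ppp1r12b was at 10 TPM or more in 23 of the 32 libraries and in 65 of the 83. With Mki67, which was at 10 TPM or more in 52 libraries, Myh11 reached that level in 19 of the 52 and in 62 of the other 63. With Col1a1 the counts for Myh11 were 51 of 76 and 30 of 39. These counts share their libraries and were not tested. All 32 libraries with Chga at 10 TPM or more lie in the smaller of the 2 parts described below. The counts with Chga therefore largely follow the gap between the parts.

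**Figure D2:**
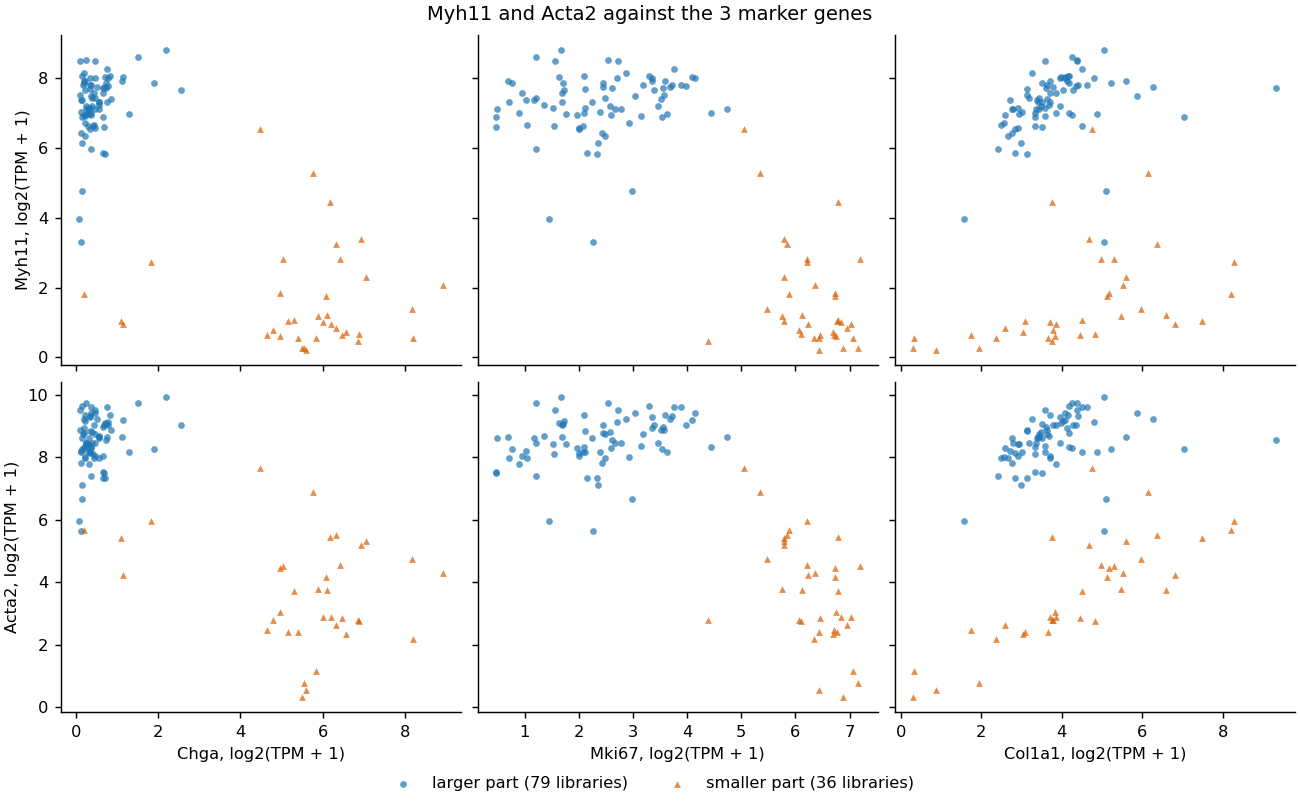
Myh11 and Acta2 against Chga, Mki67 and Col1a1, all as log2(TPM + 1), 1 point per library, with circles for the 79 libraries of the larger part and triangles for the 36 of the smaller part. Libraries fall into separate clouds, and of the 32 libraries with Chga at 10 TPM or more 3 hold as much Myh11.

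The libraries were separated by the first principal component of all expressed genes, which held 48.7% of the variance, into a larger part of 79 and a smaller part of 36. Leaving the members and markers out of that component moved 0 libraries. Correlations over both would restate the gap between the clouds, so Pearson's r of log2(TPM + 1) was taken within each part. Its p came from 100000 permutations, with Benjamini-Hochberg adjustment over every gene whose mean was 1 TPM or more. A gene was called at an adjusted p under 0.05. The parts come from the data and are not groups of the study, so they are not tested against each other here. Ldb3 in the larger part and Cnn1 in the smaller part fell into separate values again, and their r there is not given, although they are in the counts.

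Within the larger part the muscle genes rose and fell together. With Myh11, all 30 other members tested were called with a positive r, where 80.8% of all genes were called positive and 0.486% negative. The median r of the members was 0.89, against 0.40 for all genes. TPM shares a total, which can lift many genes at once. After median-of-ratios scaling the median r of all genes was -0.03 and 18.4% of them were called. That of the members was 0.83 and 28 were called. Among the first 50 of the 14621 genes by r with Myh11, 20 were members. Synm led them at r = 0.98 (rho = 0.95; 0.96 without the 2 libraries farthest in Myh11), followed by Mylk at 0.96, Myl9 and Tpm2 at 0.95 and Smtn and Acta2 at 0.94. The adjusted p of each, 3.76e-05, is the smallest reached in this test. Kcnma1 stood apart at r = 0.33 (rho = 0.28, adjusted p = 0.00415), which became -0.08 after median-of-ratios scaling, and Ppp1r14a at 0.49. Over the 465 pairs of 31 members without Ldb3 the median r was 0.76, 200 pairs were above 0.8 and 1 was below 0. That pair was Kcnma1 and Ppp1r14a, at -0.18. Acta2 with Lmod1 and with Myl9 gave 0.98.

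Where Myh11 is low in most libraries, in the smaller part, a core of contractile genes still moved together while others did not. With Myh11, 17 of the 30 members tested were called positive and 0 negative, against 4.52% and 0.301% of all genes. The count was 12 without the 2 libraries farthest in Myh11, where 0.233% of all genes were called in either direction, so those libraries carry much of the wider relation. The median r of the members was 0.60 against 0.04 for all genes. Lmod1 had r = 0.96 (rho = 0.89), Synm 0.95, Actg2 0.94, Des 0.93, Synpo2 0.92, Mylk 0.91 and Tpm2 0.90, each at an adjusted p of 0.00271. Ppp1r12b, Kcnma1, Nexn, Cacna1h, Hspb6 and Cacna1c lay between -0.20 and 0.04 and were not called. The 465 pairs of 31 members without Cnn1 had a median r of 0.28, and 134 were below 0. Acta2 and Tagln formed the closest pair, at 0.99. Cnn2 and Ppp1r12b were the most opposed, at -0.74. Ppp1r12b had its highest r with Kcnma1, 0.81, and with Nexn, 0.76, and Cacna1c its highest with Kcnma1, 0.65. These 4 genes are among the 13 members not called with Myh11. In 4 libraries of the smaller part, W1118, W1790, W1915 and W1050, Chga was 0.15 to 2.55 TPM and Col1a1 112.02 to 308.3 TPM. These libraries held 21.14 to 44.99 TPM of Cnn2 and 4.52 to 5.78 TPM of Ppp1r12b. Their Chga lay apart from that of the other 32, but fewer than 6 libraries were not treated as separate. No r was computed without them.

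**Figure D3:**
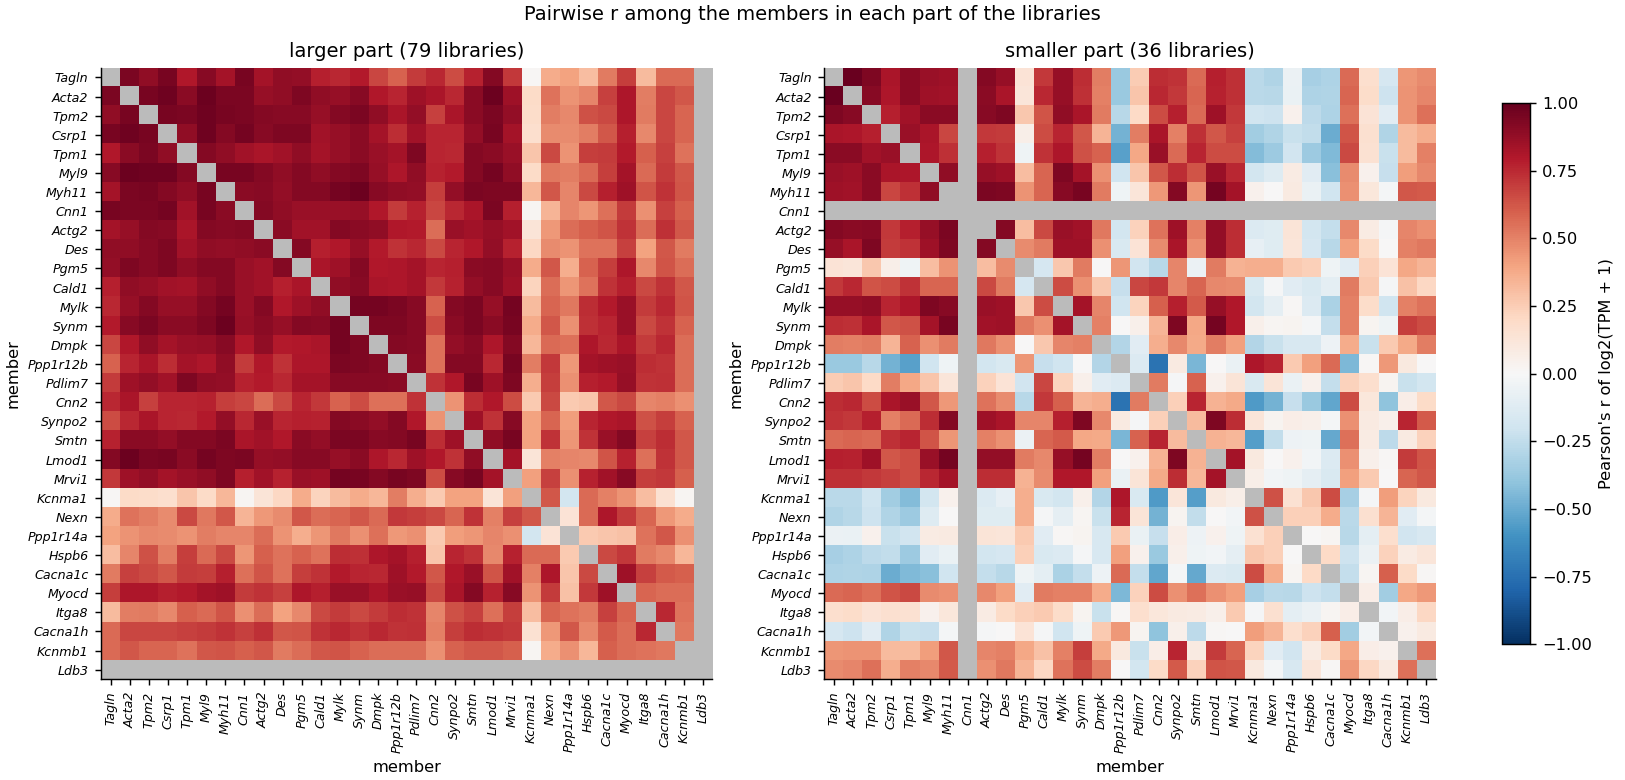
Pearson's r of log2(TPM + 1) between each pair of members, ordered by median TPM, in the 79 libraries of the larger part on the left and the 36 of the smaller part on the right. Grey rows are Ldb3 and Cnn1, which are not given in that part, and the median over pairs is 0.76 on the left and 0.28 on the right.

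Against Chga, members were called over the whole larger part but not within its libraries of lower Chga. Calls in the smaller part did not hold by rank. Over all 79 libraries of the larger part 19 of 31 members were called positive and 0 negative, where 17% and 0.109% of all genes were. By Spearman's rho 15 were called, where 9.64% of all genes were. Without the 2 libraries farthest in Chga 16 were called, where 12.9% of all genes were. Chga never exceeded 4.84 TPM there and fell into 72 lower and 7 higher libraries, so r was also taken within the 72. Among these 0 of 31 members were called by Pearson's r with permutations, against 1.12% of all genes in the positive and 0% in the negative direction. At an unadjusted p under 0.05 there were 19 members, and 1696 of all 14618 genes. With Spearman's rho 0 members were called, against 0.848% of all genes. The highest r was 0.34 over the members and their median 0.24, against 0.13 for all genes. Chga reached 479 TPM in the smaller part, and 3 members were called positive and 7 negative, where 9.78% and 24% of all genes were. Ppp1r12b (r = 0.57, rho = 0.22), Kcnma1 (0.54, rho = 0.22) and Cacna1c (0.48, rho = 0.29) were positive. Cnn2 (-0.67, rho = -0.21), Smtn (-0.65, rho = -0.44) and Myocd (-0.58, rho = -0.20) led the negative ones, with Pdlim7, Csrp1, Tpm1 and Cald1. By Spearman's rho 0 of the 10 were called, where 1.93% of all genes were. Without the 2 libraries farthest in Chga 1 member was, where 5.53% of all genes were, so the calls rest on those libraries. Without the 20 genes of largest share in the TPM total the split was 6 positive and 5 negative, with 34.7% of all genes called.

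Against Mki67, a proliferation gene, members were called positive in the larger part, a direction that turned under other scalings, and in the smaller part 17 of the 20 members called were negative. Among the 79 libraries 13 of 31 were called positive and 0 negative, where 72.8% of all genes were positive and 1.4% negative. The median r was 0.20 against 0.43. Cnn2 had the highest r, 0.62 (rho = 0.64, adjusted p = 2.31e-05), followed by Pgm5 at 0.37 and Tagln at 0.34. After median-of-ratios scaling 1 member, Cnn2, was positive and 12 were negative, with 42.3% of all genes called. Without the 20 genes of largest share 1 was positive and 4 negative, with 37.5% called. Among the 36 libraries 17 members were called negative and 3 positive, against 20.8% and 23.3% of all genes, with a median r of -0.39 against -0.02. Tagln (-0.54, rho = -0.54, adjusted p = 0.00262), Tpm1 (-0.54), Acta2 (-0.53) and Dmpk (-0.53) were lower where Mki67 was higher. Nexn (0.75, rho = 0.79, adjusted p = 0.000129), Ppp1r12b (0.64, rho = 0.73) and Kcnma1 (0.40, rho = 0.48) were higher. Myh11 itself, at -0.38 with an adjusted p of 0.0514, was not called. Median-of-ratios scaling gave 19 negative and 4 positive, at a median r of -0.41, with 61.8% of all genes called. With Col1a1 held constant 1 member was negative and 4 were positive, with 31.4% of all genes called. Without the 20 genes of largest share 8 and 8 were, at a median r of -0.28, with 60.3% of all genes called. On the TPM as given, 8 of 11 fibroblast, 6 of 9 endothelial and 5 of 8 prostate luminal genes were also called negative in this part, and 0 positive. Of 7 pericyte and 14 skeletal muscle genes 1 and 4 were negative and 0 positive, at median r of -0.36 and -0.35. Of 8 neuroendocrine genes 1 was negative and 0 positive, at a median r of 0.20.

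Against Col1a1, the fibroblast collagen, members were called in both directions in the smaller part. There 16 of 31 were positive and 3 negative, against 44.7% and 13.8% of all genes, and the median r was 0.40 against 0.28. Cnn2 (0.85, rho = 0.89), Acta2 (0.80, rho = 0.84), Tagln (0.79, rho = 0.83), Tpm1 (0.76, rho = 0.78), Cald1 (0.70, rho = 0.66) and Csrp1 (0.67, rho = 0.66) followed it most closely, with adjusted p-values of at most 0.000119. Without the 2 libraries farthest in Col1a1, W1103 and W1514 at 0.23 and 0.26 TPM, these r lay between 0.67 and 0.89. That check keeps the 4 libraries of low Chga and high Col1a1 named above. Myh11 was at 0.42 (rho = 0.69, adjusted p = 0.0224). Lmod1 (0.31), Synm (0.25) and Synpo2 (0.25) were not called by Pearson's r. Ppp1r12b (-0.63, rho = -0.50), Nexn (-0.48) and Kcnma1 (-0.47) were negative. Median-of-ratios scaling, and leaving out the 20 genes, gave 14 positive and 5 negative members in each case, with 57% and 48.7% of all genes called. By Spearman's rho 21 members were positive and 3 negative, at a median of 0.47 against 0.27 for all genes, of which 53.6% were called. A pseudocount of 0.1 gave 18 positive and 3 negative, at a median r of 0.44 against 0.28, with 56.1% of all genes called. Among the 79 libraries 21 of 31 members were called positive and 0 negative, where 52.6% and 3.45% of all genes were. The median r of the members, 0.28, was near the 0.26 of all genes. After median-of-ratios scaling 5 were called, against 40.7% of all genes, and without the 20 genes 8, against 41.8%. By Spearman's rho 30 of 31 were called, at a median of 0.50 against 0.32 for all genes, of which 69.7% were called in either direction. Cnn2 (0.62), Itga8 (0.61), Nexn (0.57) and Cacna1c (0.53) had the highest r, and Col1a1 ran from 1.96 to 645 TPM, with a median of 11.3.

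**Figure D4:**
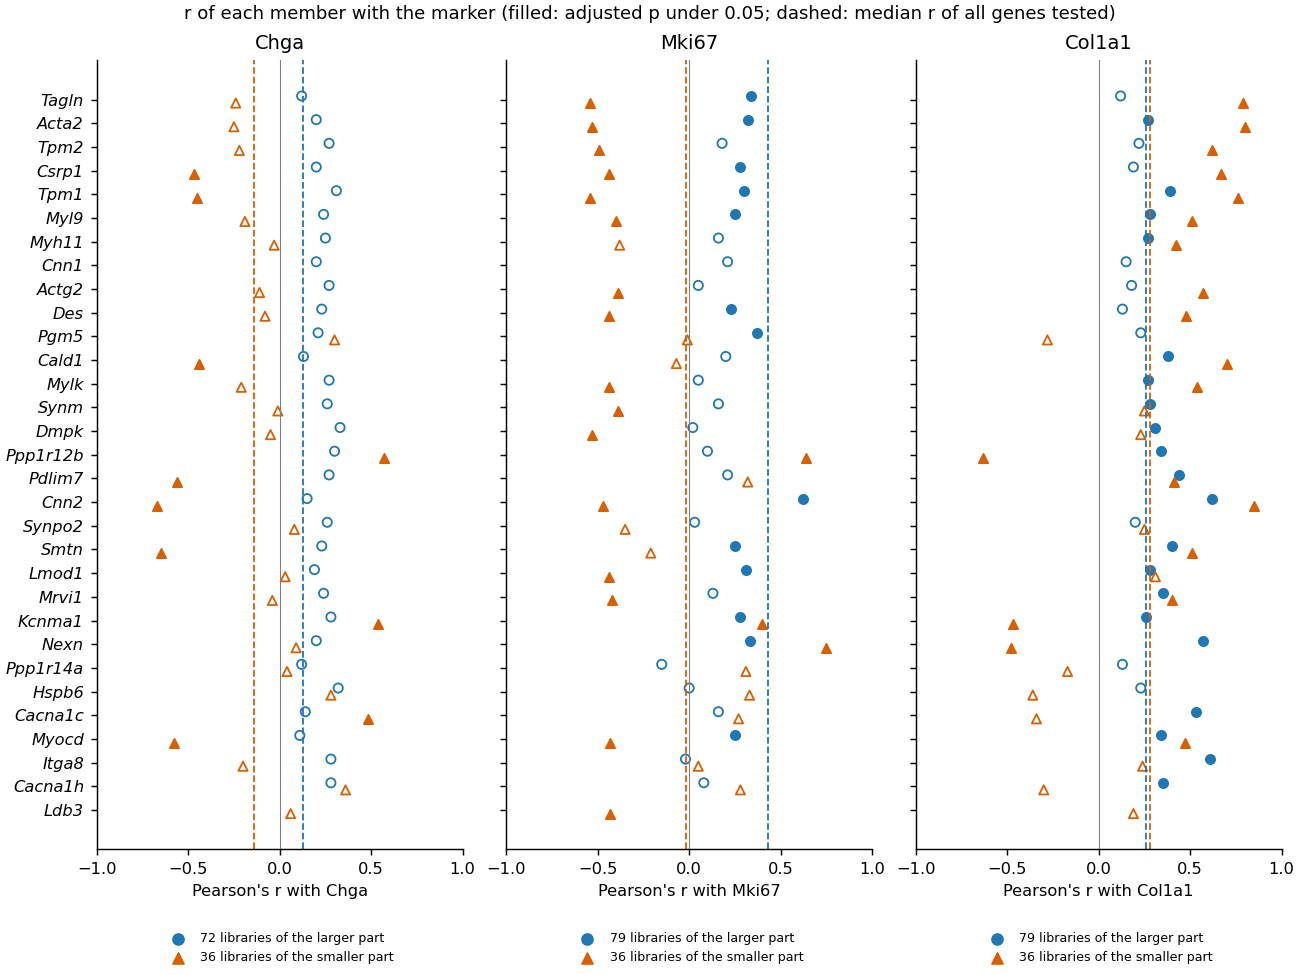
Pearson's r of each tested member, ordered by median TPM, with Chga, Mki67 and Col1a1, as circles for the libraries of the larger part (72 for Chga, 79 for the others) and triangles for the 36 of the smaller part. Filled points passed an adjusted p of 0.05 and dashed lines are the median r of all genes tested. In the smaller part Ppp1r12b, Nexn and Kcnma1 lie opposite to Acta2, Tagln and Cnn2 for Col1a1. There, 4 libraries of low Chga hold high Col1a1 and Cnn2.

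Ratios of 2 members within a library were taken after adding 1 TPM to each, so they depend little on the TPM total where both are high, but draw toward 0 where both are low, as in many libraries of the smaller part. The log2 ratio of Myh11 to Acta2, a comparison added after the values were seen, ranged from -4.38 in W1050 over a median of -1.39 to -0.06 in W1103, so Acta2 was the higher in every library. It fell in the smaller part as Col1a1 rose, with r = -0.83 (rho = -0.74, adjusted p = 6e-05 over 6 relations, the smallest possible), r = -0.78 without the 2 farthest libraries and -0.65 with a pseudocount of 0.1. The 2 farthest were those lowest in Col1a1, and r without the 4 libraries of low Chga and high Col1a1 was not computed. In the larger part r was 0.10, with an adjusted p of 0.377. The log2 ratio of Actg2 to Acta2 ranged from -3.98 over -1.65 to 0.25 and was above 0 in 1 library, W1796. It also fell with Col1a1 in the smaller part (r = -0.70, rho = -0.71, adjusted p = 6e-05), but with a pseudocount of 0.1 r was -0.32 and the adjusted p 0.0825. In the larger part it fell with Mki67 (r = -0.40, rho = -0.46, adjusted p = 0.00075), as did the ratio of Myh11 to Acta2 (r = -0.36, rho = -0.30, adjusted p = 0.00294). In the smaller part the ratio of Actg2 to Acta2 rose with Mki67 (r = 0.44, rho = 0.50, adjusted p = 0.0154), as did that of Myh11 to Acta2 (r = 0.38, rho = 0.41, adjusted p = 0.0361), but with a pseudocount of 0.1 neither passed, at r = 0.26 (adjusted p = 0.152) and 0.31 (0.0743). Against Chga in the smaller part the ratio of Myh11 to Acta2 passed (r = 0.41, rho = 0.12, adjusted p = 0.0244), with r = 0.11 without the 2 farthest libraries, and that of Actg2 to Acta2 did not (r = 0.35, adjusted p = 0.0512). In the 72 libraries neither ratio passed against Chga, with r of 0.22 and 0.23, but without the libraries highest in skeletal muscle genes both did, at 0.29 (adjusted p = 0.0238) and 0.39 (0.00264).

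**Figure D5:**
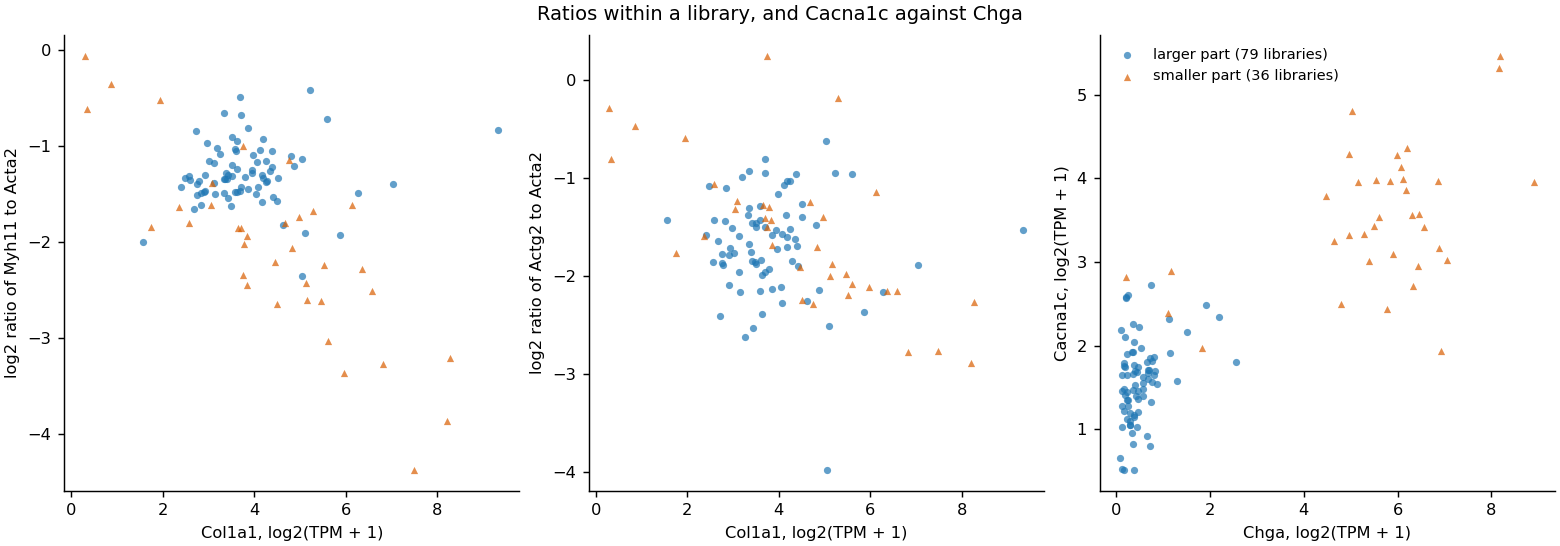
Log2 ratios of Myh11 to Acta2 and of Actg2 to Acta2 against Col1a1, and Cacna1c against Chga as log2(TPM + 1), 1 point per library, circles for the larger part and triangles for the smaller part. In the smaller part both ratios fall with Col1a1 (r = -0.83 and -0.70). The 18 libraries with 10 TPM or more of Cacna1c, all in that part, hold as much Chga.

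Genes outside the members that run the same machinery were called with Myh11 in the larger part, as were 80.8% of all genes in the positive direction, at a median r of 0.40. The 10 genes with the highest r were Tmem252 (0.97), Flna, the actin crosslinker filamin A (0.95), Jph2, junctophilin 2 (0.94), Ppp1r12a, the other myosin phosphatase targeting subunit (0.93), Slmap (0.92), Camk2g, Ckb, the brain-type creatine kinase (both 0.91), Tgfb1i1, Tspan2 and Adcy5, an adenylyl cyclase (each 0.90). Of these Jph2 had r = 0.90 in the smaller part too, whereas Ckb had -0.08. All 7 tested of 12 transcription regulators were called positive, led by Srf (0.78), Klf4 (0.60) and Mkl1 (0.46), at a median of 0.45, and all 19 tested of 25 signalling genes, led by Ppp1r12a, Itpr1, a calcium release channel (0.79), and Atp2a2, a calcium pump (0.78), at a median of 0.60. All 21 adhesion genes were called, among them Lims2 (0.88) and Itga1 (0.86), at a median of 0.75. The smaller part had 2 of 7, 1 of 19 and 7 of 21 called, all positive, where 4.52% of all genes were. Srf, at 0.03, was not among them, and Lims2, at 0.87, was.

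Other muscle and vessel cells could supply some of the same transcripts. The summed TPM of 15 skeletal muscle genes ran from 1.81 over a median of 107.7 to 5473 in W4078, which also held the highest Ldb3, Mylk, Tpm1, Tpm2, Synm, Dmpk, Pdlim7 and Ppp1r12b. Ckm, the muscle creatine kinase, was at 10 TPM or more in 29 libraries, and Acta2 was in all 29, as it was in 69 of the other 86. All 4 libraries with 10 TPM or more of Ldb3 were among those 29. The 64 libraries with lower Ckm within the larger part stayed at or under 23.7 TPM. Among them 30 of 31 members were called positive and 0 negative with Ckm, where 49.6% and 0.26% of all genes were. Ldb3 and Pdlim7 had the highest r, 0.66, and Kcnma1, at 0.24, was the member not called. After median-of-ratios scaling 15 members were called, where 2.66% of all genes were. With Myh11 in the larger part 3 of 14 skeletal muscle genes tested were called, Acta1 (0.69), Tnnc2 (0.55) and Ckm, as were all 7 pericyte genes tested of 9, led by Cspg4 (0.82), and all 9 endothelial genes, led by Esam and Tie1 (both 0.57). The median r was 0.08, 0.50 and 0.52 for these lists and 0.40 for all genes, of which 80.8% were called positive. In the smaller part 7 of the 14 skeletal muscle genes were called positive with Myh11, at a median r of 0.59. There 0 of the 7 pericyte and 0 of the 9 endothelial genes were called, at medians of 0.34 and 0.38. All genes had a median of 0.04 in that part, and 4.52% were called positive. The 3 highest of each list by mean were Acta1, Tnnc2 and Ckm, Rgs5 (r = 0.50 with Myh11), Pdgfrb (0.49) and Kcnj8 (0.61), and Egfl7 (0.45), Vwf (0.51) and Pecam1 (0.56). The summed pericyte genes ran from 2.28 to 129 TPM and the endothelial ones from 10.9 to 210 TPM. Without the 10 libraries highest in skeletal muscle genes, all of them in the larger part, 30 of 30 members were still called with Myh11 there, at a median r of 0.90. The part of these cells in the other values was not tested.

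Fibroblast, epithelial and tumor genes were compared in the same way. All 11 fibroblast genes were called positive with Myh11 in the larger part, led by Gsn (0.65), Dcn (0.48) and Dpt (0.46), but their median r of 0.39 was near the 0.40 of all genes, of which 80.8% were called positive. In the smaller part 5 of the 11 were called, where 4.52% of all genes were. Gsn, Col3a1 (0.35) and Dcn had the highest means, 164, 125 and 119 TPM. None of the 8 proliferation genes was called in either part by Pearson's r with permutations. At an unadjusted p under 0.05 the counts were 0 and 7, against 12080 of 14621 and 2984 of 14611 genes. In the smaller part their r ran from -0.51 to -0.14. Mcm2 (0.17), Mki67 (0.16) and Pcna (0.15) had the largest r in the larger part. Of 8 neuroendocrine genes 5 were called there, led by Eno2 (0.42), Ddc (0.37) and Chga, whose separate values there leave its r out, and Chgb, at 0.23, was not. Of 8 prostate luminal genes 3 were called, among them Krt8 (0.30) and Hoxb13 (0.26), and the 3 of highest mean were not, Tgm4 (0.23), Sbp (-0.06) and Spink1 (-0.02). Of 8 seminal vesicle genes 2 were called, Pate4 (0.24) and Svs2 (0.23), and Svs5 (0.22) and Svs4 (0.16) were not. In the smaller part 4 of the 8 luminal and 2 of the 8 seminal vesicle genes were called positive with Myh11. Their median r was 0.51 and 0.42, against 0.04 for all genes. Of the 8 neuroendocrine genes 0 were called there. The summed seminal vesicle genes ran from 1.49 to 173260 TPM, and without the 10 libraries highest in them, all in the larger part, 30 of 30 members were called with Myh11 at a median r of 0.89.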

How the data were processed

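RNA of F2 prostates was depleted of ribosomal RNA and sequenced. The methods of the study give fewer prostates than the table has libraries and do not name them, and all libraries were used. After trimming, the authors aligned reads by Bowtie2 2.2.5 to an allele-specific C57BL/6 and WSB transcriptome on GRCm38 and quantified genes with RSEM 1.2.20, per the methods and the submitters' processing notes. The deposited values are TPM, scaled to a constant total in each library, so depth and counting error are unknown and no count model was used. The annotation behind them is not given in the sources used here. The 20 genes with the largest share held 48.9% to 81.8% of the TPM of a library. The highest r between 2 libraries was 0.974. Where nothing says otherwise a library is 1 mouse, and p-values measure the spread between libraries.

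Members were matched by symbol through GENCODE M21, which held 45136 of 45699 genes. Each library had at least 43000000 read pairs of 126 bases per the labels. Correlations used log2(TPM + 1) of genes averaging 1 TPM or more, 100000 two-sided permutations and Benjamini-Hochberg adjustment over all genes tested with that marker and part. Values were called separate where 2 normal components beat 1 by more than 10 in BIC, with Ashman D above 2 and 6 or more libraries in each. Alternatives were a pseudocount of 0.1, median-of-ratios scaling, TPM rescaled without 20 genes, no filter, Spearman's rho, Col1a1 held constant, and libraries left out. Named are all members, the markers, the 10 other genes with the highest r with Myh11 in the larger part, and in each list the 3 with the largest absolute r and, for other cell types, the 3 with the highest mean. Some genes that this rule names are not reported here. The members and lists were chosen with earlier results of these data known. The scripts were tested on simulated data. Calculations used scikit-learn 1.9.0, scipy 1.17.1 and numpy 2.4.6, and tables and plots pandas 2.3.3 and matplotlib 3.10.9, all under Python 3.11.15.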

Additional observations from a re-analysis of the deposited data

How the results depend on the processing

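TPM carries no depth, so what counting error limits is unknown. The libraries form 1 group, and no paired analysis was possible because there is no second group that shares replicate numbers. Of the r of members, 2473 kept their side of the threshold, 223 fell below it and 78 rose past it under the alternatives. The 2473 include repeats that could not differ from the main r. Forming the parts without the members moved 0 libraries, and neither set of 10 libraries left out touched the smaller part. The members called with Myh11 stayed within 1.5 times in both parts, and those with Col1a1 in the smaller part. In the larger part Mki67 turned 20 members under median-of-ratios scaling, with r of Acta2 -0.02, Actg2 -0.27, Des -0.1, Lmod1 -0.04, Synpo2 -0.41, Myl9 -0.13, Mylk -0.38, Smtn -0.19, Tpm1 -0.12, Myocd -0.11, Mrvi1 -0.32, Ppp1r12b -0.44, Kcnma1 -0.21, Csrp1 -0.13, Synm -0.29, Nexn -0.08, Cacna1c -0.27, Cacna1h -0.32, Dmpk -0.44, Hspb6 -0.46. Rescaling without 20 genes turned Myl9 (-0.03), Smtn (-0.04), Kcnma1 (-0.03), Csrp1 (-0.03), Dmpk (-0.29) and Hspb6 (-0.28). It gave 5 members called with Mki67, 1 positive and 4 negative, against 37.5% of all genes. Holding Col1a1 constant gave 6, against 71.5%. In the smaller part Col1a1 held constant gave 5 called with Mki67, with Cald1 at 0.40, against 31.4% of all genes. With Chga it gave 5, against 17.7%, where rho gave 0 and leaving out the 2 farthest libraries 1. With Col1a1 in the larger part 5 were called after median-of-ratios scaling, against 40.7% of all genes, and 8 without 20 genes, against 41.8%. Median-of-ratios scaling put Kcnma1 at -0.00 (and at -0.08 with Myh11). Over all 79 libraries 19 members were called with Chga. The count was 8 without the 10 libraries highest in seminal vesicle genes, against 16% of all genes. With Col1a1 held constant it was 8, against 6.28%. Alternatives chosen after seeing the data were the 72 and 64 libraries, the Myh11 ratio and the pseudocount of 0.1 for ratios. In the 72 libraries, leaving out the libraries highest in skeletal muscle genes called 1 member with Chga and gave the Actg2 to Acta2 ratio r = 0.39, and leaving out the farthest 2 gave 0.27. In the 64, median-of-ratios scaling called 15 with Ckm, against 2.66% of all genes. In the smaller part that ratio had r = 0.26 with Mki67 and -0.32 with Col1a1 at a pseudocount of 0.1. Leaving out the libraries highest in skeletal muscle genes removed none of the smaller part, but its r of 0.35 with Chga there then passed (adjusted p = 0.041), since the other p-values adjusted with it changed. The Myh11 to Acta2 ratio passed with Chga in the 72 libraries without those highest in seminal vesicle genes (0.26, adjusted p = 0.0436). The cause of these shifts was not tested. The planned check of proteins was left out, since no protein sequences were used here.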

Other observations

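The genes closest to Myh11 in the smaller part, chosen after their values were seen, included the ATP receptor gene P2rx1 (r = 0.92, rho = 0.77), Jph2 (0.90, rho = 0.84), Mustn1 (0.89, rho = 0.89), Lims2 (0.87, rho = 0.86), the noncoding RNA Carmn (0.84, rho = 0.81), Pdlim3 (0.83, rho = 0.60) and Cav1, caveolin 1 (0.82, rho = 0.84). Each had an adjusted p of 0.00271. In the larger part their r with Myh11 was 0.75 for P2rx1, 0.94 for Jph2, 0.57 for Mustn1, 0.88 for Lims2, 0.80 for Carmn, 0.85 for Pdlim3 and 0.83 for Cav1. Krt15, a basal epithelial keratin, was also among the first 10 non-member genes in the smaller part, at 0.83 with a rho of 0.51. So were Itih5 (0.90, rho = 0.83) and Wfdc15b (0.83, rho = 0.63). In the larger part r was 0.53 for Krt15, 0.72 for Itih5 and 0.40 for Wfdc15b.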
